A study of Mus musculus with 24 samples.

Results

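The 10 genes followed here encode proteins used as surface markers of mesenchymal stem cells (MSCs), and their RNA was measured in developing mouse molars: Thy1, Nt5e, Eng, Cd44, Alcam, Mcam, Nes, Lepr, Ly6a and Vcam1. They were picked by name from the read-count table, after its gene identifiers had been matched to mouse symbols, and the list was drawn up with earlier results of these data known. All 10 were found among the 56748 genes counted, and each had counts in every library. Nes encodes nestin, a filament protein inside the cell, so it is a marker of progenitor cells but not a surface protein. The question put to these genes was whether the buccal (cheek) side of the tooth germ carries more stem cell marker RNA than the lingual (tongue) side.

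The study sequenced RNA from mandibular first molar tooth germs of ICR mice, an outbred stock, without a transgene or drug treatment. Its 24 libraries fall into 8 groups of 3. Cap-L and Cap-B are the lingual and buccal parts of the dental mesenchyme at embryonic day 13, the cap stage. Bell-L and Bell-B are the same parts at embryonic day 15, the bell stage. Cap-L+2D and Cap-B+2D are the cap-stage parts after 2 days of separate culture in vitro, and Cap-W and Bell-W are the undivided mesenchyme of each stage. Tooth germs were cut with a fine needle and the epithelium was removed, so a library holds whatever cells were left in that piece of tissue. Embryos came from only a few litters, and nothing states which animals a replicate came from. The p-values therefore measure the spread between these libraries, which may be technical.

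MSCs are the fibroblast-like cells of connective tissue that can give rise to bone, cartilage and fat, and in teeth to pulp and dentine-forming cells. They are usually recognised by a panel of proteins rather than by any single protein: THY1 (CD90), NT5E (CD73) and ENG (CD105) must be present, and blood cell markers absent. CD44, ALCAM, MCAM and VCAM1 are adhesion molecules, LEPR and nestin mark stromal cells around vessels in bone marrow, and LY6A (Sca-1) is used in mice. None of them is restricted to MSCs: vessels carry ENG, MCAM and VCAM1, neurons carry THY1, and muscle precursors and glia carry nestin.

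On GRCm39, the build of the deposited counts, the panel genes lie on chromosome 9 from 43954681 to 43959876 (Thy1), chromosome 9 from 88209250 to 88254145 (Nt5e) and chromosome 2 from 32536607 to 32572681 (Eng). The adhesion genes lie on chromosome 2 from 102641486 to 102732010 (Cd44), chromosome 16 from 52069359 to 52274437 (Alcam), chromosome 9 from 44045766 to 44054024 (Mcam) and chromosome 3 from 115903598 to 115923337 (Vcam1). Nes occupies 87878385 to 87887758 on chromosome 3, Lepr 101574601 to 101672549 on chromosome 4 and Ly6a 74866726 to 74869880 on chromosome 15. Counts cover the exons of each gene, and at most 3% of these bases, in Cd44, are shared with another gene. Ly6a belongs to a cluster of related genes, and the counting was set to leave out read pairs that also matched another place.

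Promoter sequence is shown for the member that was higher on the buccal side in all 3 settings (Nes), a member that was lower there in all 3 by the same test without the fold limit (Alcam) and the member that was most lingual at the bell stage (Nt5e). RefSeq promoters, on build GRCm38.p6 and so numbered differently from the counts, matched 7 of the 10 members, without Thy1, Ly6a and Vcam1. Each line below gives the 250 bases before the start of the gene, on the gene's strand from 5′ to 3′. Capitals mark the E-box CANNTG, the motif of basic helix-loop-helix factors, and the GC box GGGCGG on either strand, with overlapping matches counted separately.
Nes, chr3:87970843-87971092, plus strand: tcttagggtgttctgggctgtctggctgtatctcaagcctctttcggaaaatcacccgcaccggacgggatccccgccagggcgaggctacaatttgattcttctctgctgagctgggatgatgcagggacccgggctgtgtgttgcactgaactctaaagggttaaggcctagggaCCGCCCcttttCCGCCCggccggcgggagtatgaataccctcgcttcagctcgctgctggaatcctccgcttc
Alcam, chr16:52453082-52453331, minus strand: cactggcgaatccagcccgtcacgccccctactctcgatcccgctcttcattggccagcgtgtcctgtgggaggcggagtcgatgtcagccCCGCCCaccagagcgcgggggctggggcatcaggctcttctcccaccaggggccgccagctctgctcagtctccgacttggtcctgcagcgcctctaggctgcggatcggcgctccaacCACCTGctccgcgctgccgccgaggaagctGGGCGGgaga
Nt5e, chr9:88327359-88327608, plus strand: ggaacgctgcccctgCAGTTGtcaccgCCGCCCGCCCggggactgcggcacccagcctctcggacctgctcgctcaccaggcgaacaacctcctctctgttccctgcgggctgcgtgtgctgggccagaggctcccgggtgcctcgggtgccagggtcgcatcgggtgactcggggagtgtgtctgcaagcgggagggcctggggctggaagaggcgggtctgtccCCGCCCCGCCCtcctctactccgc
The Nes window held 0 E-boxes and 2 GC boxes, the Alcam window 1 and 2, and the Nt5e window 1 and 4. Among all 32851 RefSeq promoters of this length, 66.2% held an E-box and 32.7% a GC box, and none of the windows shown held TATAAA, which 12.4% did. These matches describe the letters of the windows only.

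Depth was between 20581720 and 39266497 counts per library. All 10 dental mesenchyme markers, among them the transcription factors Msx1, Pax9, Lhx6 and Barx1, were above 3 counts in every group, and their summed level was between 1572 to 1593 CPM in Cap-B+2D and 2341 to 2396 CPM in Cap-B. CPM are counts scaled to 1000000 per library with TMM factors over all 24 libraries. Libraries of a divided group mostly lay close together. Cap-L replicate 2 stood further from replicates 1 and 3 than these did from each other (chi-squared per gene 7.5 and 9.8, against 2.3). Pairs of undivided libraries gave 7.9 to 161. Of the undivided libraries, Cap-W replicate 1 gave 5.39% of its counts to Rn18s-rs5, a ribosomal RNA gene, and Bell-W replicate 3 had 2104 CPM of summed epithelial markers against 561 and 477 in the other 2.

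Per kilobase of exon, which allows levels to be compared between genes, the melanoma cell adhesion molecule gene Mcam and Alcam were the most abundant members in most groups. In Cap-L they stood at 30.1 and 28.9 mean CPM per kilobase, followed by Eng at 15.0 and Nes at 13.5. Thy1 and Nt5e, which belong to the defining panel, stood at only 2.57 and 1.24. In Cap-B, Thy1 was at 12.9 CPM per kilobase, beside Cd44 at 12.9 and Lepr at 12.8. In Cap-B+2D the order was different, with Nes highest at 89.1 CPM per kilobase and Mcam next at 25.5. Ly6a was the lowest member in 7 of the 8 groups, and was above Thy1 and Nt5e only in Cap-L, at 2.60 CPM per kilobase.

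**Figure D1:**
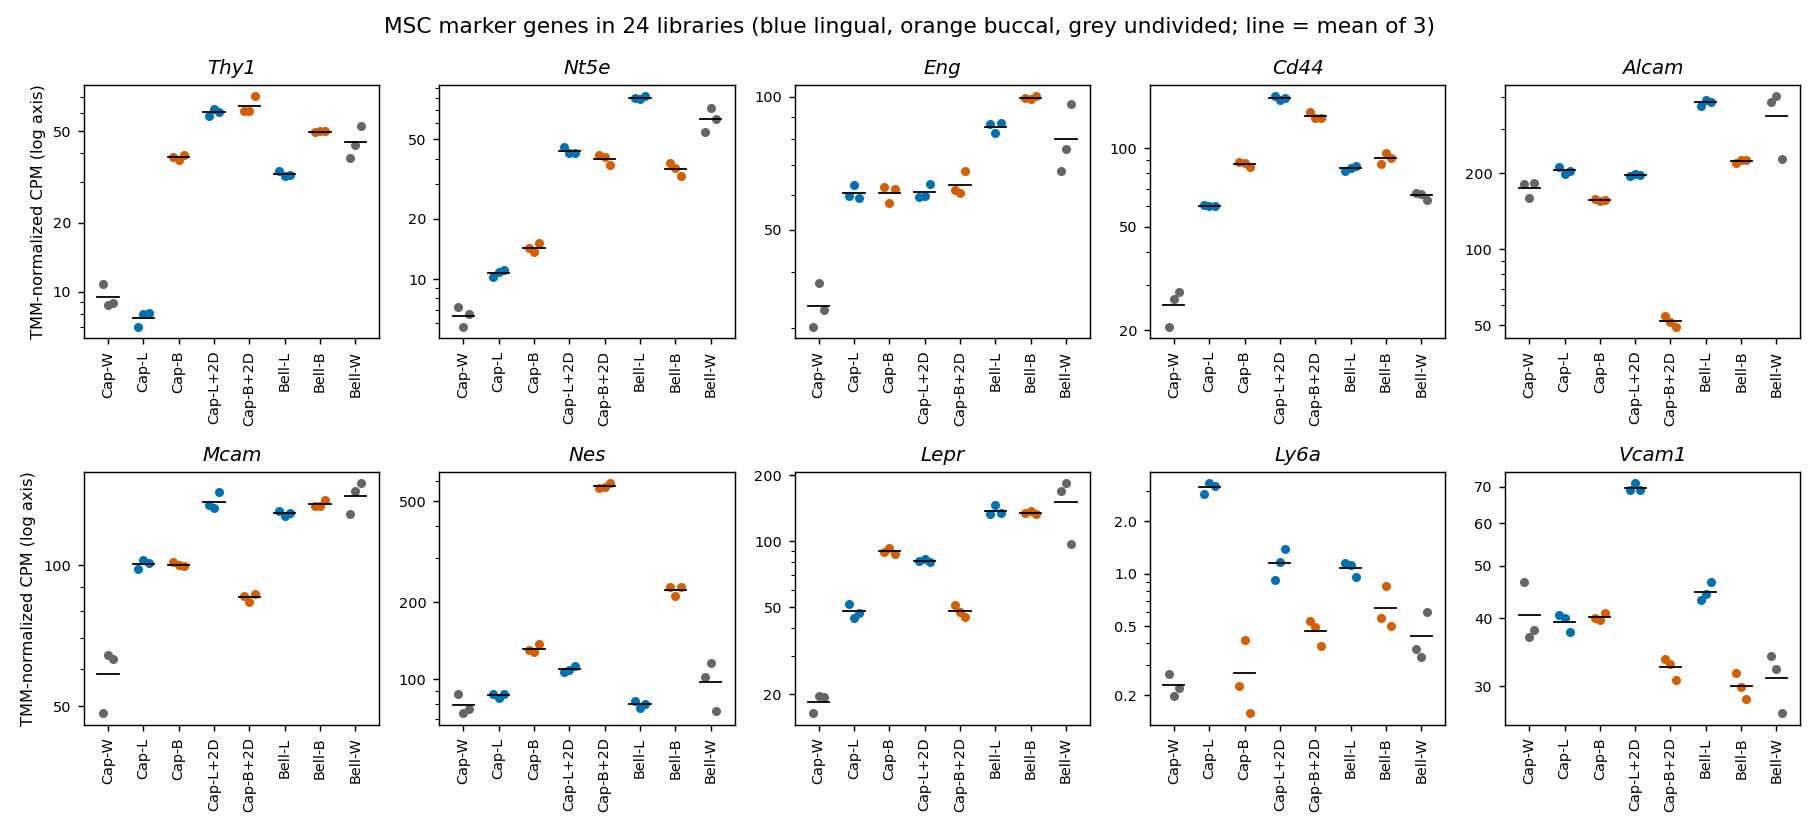
TMM-normalized CPM of the 10 members on log axes, with 1 point per library and a line at the mean of 3 in each of the 8 groups (blue lingual, orange buccal, grey undivided). Thy1 is lowest in Cap-L and Cap-W, Nes stands highest in Cap-B+2D, and Ly6a is highest in Cap-L.

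Between the sides, the members moved in both directions. At the cap stage Thy1, Lepr, Nes and Cd44 were higher in Cap-B than in Cap-L, Ly6a was lower, and the other 5 were not called. To be called, a gene needed an adjusted p under 0.05 together with a log2 fold change beyond 0.5 in either direction. The 4 of 10 that rose and the 1 that fell stood against 10.4% of the 20653 genes tested that rose and 7.1% that fell. The median log2 fold change of the members was 0.25, against -0.01 over all genes tested, and it lay within 0.01 of 0 over all genes in the other side comparisons too. In bell-stage tissue 2 members were higher in the buccal part and 4 were lower, against 6% and 6.88% of 21181 genes. After culture 1 was higher and 5 were lower, against 12.5% and 12.5% of 21195 genes. The median over the members was 0.02 at the bell stage and -0.46 after culture. Libraries of the sides did not overlap for 7 members at the cap stage, 9 at the bell stage and 8 after culture, as for 52.2%, 45.5% and 58.8% of all genes tested. In these bulk samples, fewer cells of a type and less RNA per cell cannot be told apart.

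**Figure D2:**
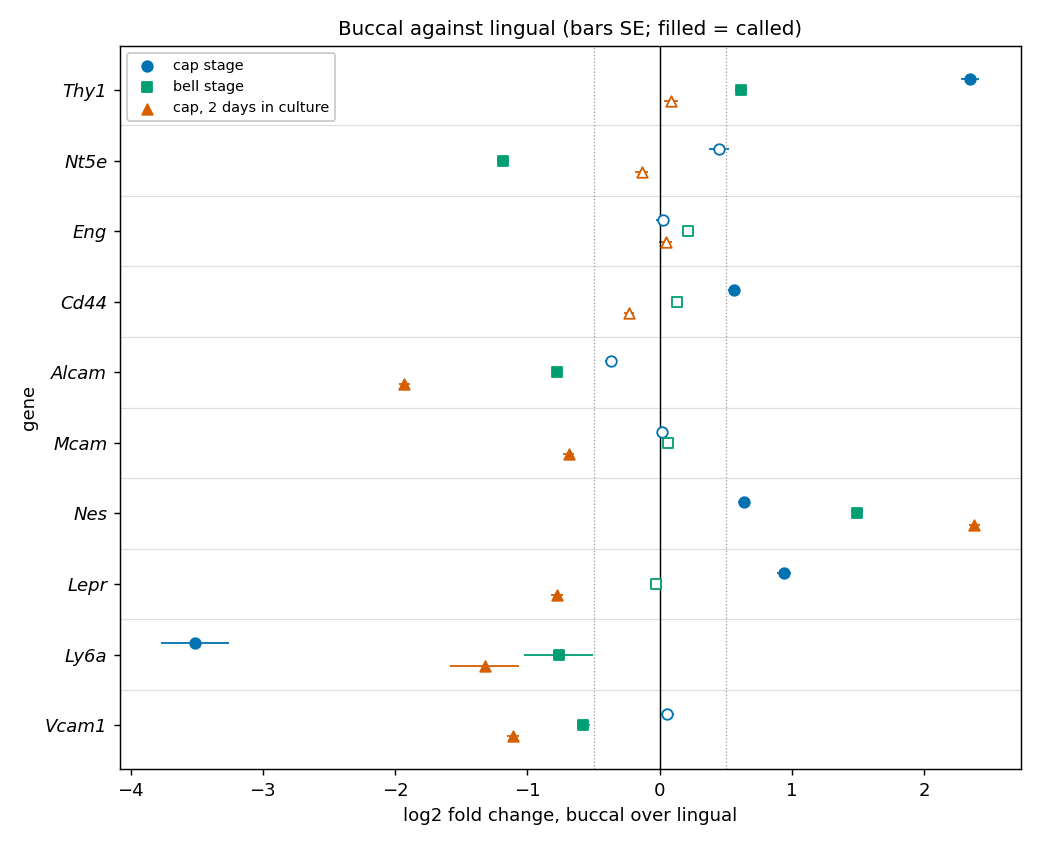
Log2 fold change of each member, buccal over lingual, with its standard error, at the cap stage, at the bell stage and after 2 days of culture. Filled symbols were called, dotted lines mark the fold limit of 0.5, and only Nes is called to the right of 0, and only Ly6a to the left, in all 3 settings.

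Thy1, a small glycoprotein held in the membrane by a lipid anchor, had the largest buccal excess at the cap stage. Its level was 7.06, 7.99 and 8.04 CPM in the Cap-L libraries and 38.7, 37.3 and 39.5 CPM in Cap-B. The groups were far apart, with a log2 fold change of 2.34 (SE 0.067, edgeR adjusted p = 3.61e-15). At the bell stage the libraries still did not overlap, at 33.4, 31.8 and 32.1 CPM in Bell-L and 49.3, 49.9 and 49.9 CPM in Bell-B. The log2 difference there was 0.62 (SE 0.044, edgeR adjusted p = 2.78e-15). After culture the sides overlapped, at 58.1, 62.4 and 60.5 CPM in Cap-L+2D and 60.8, 61.4 and 70.7 CPM in Cap-B+2D, with a log2 difference of 0.08 (SE 0.053, edgeR adjusted p = 0.192). The buccal excess of Thy1 was smaller at the bell stage, with an interaction of -1.73 (SE 0.078, edgeR adjusted p = 4.94e-17), and smaller after culture, with an interaction of -2.26 (SE 0.093, edgeR adjusted p = 2.5e-18).

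Nt5e, the enzyme that turns AMP outside the cell into adenosine, changed side between the stages. At the cap stage it was low, at 10.2, 10.8 and 11.1 CPM in Cap-L and 14.3, 13.7 and 15.1 CPM in Cap-B. Every buccal library was above the lingual ones, but the log2 difference of 0.45 (SE 0.075, edgeR adjusted p = 8.43e-05) was under the fold limit. In bell-stage tissue it was 80.2, 79.7 and 81.7 CPM in Bell-L and 38.1, 35.8 and 32.5 CPM in Bell-B. Here every lingual library was higher, with a log2 fold change of -1.18 (SE 0.044, edgeR adjusted p = 6.1e-25). After culture Nt5e was 45.5, 42.7 and 42.6 CPM in Cap-L+2D and 41.4, 40.8 and 37.2 CPM in Cap-B+2D, a difference under the fold limit at -0.14 (SE 0.05, edgeR adjusted p = 0.0258). The change of the side difference from cap to bell was -1.64 (SE 0.088, edgeR adjusted p = 2.77e-15).

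Eng, a co-receptor for TGF-beta family ligands, showed no call between sides in any setting. Its log2 difference was 0.02 (SE 0.048, edgeR adjusted p = 0.747) at the cap stage and 0.05 (SE 0.049, edgeR adjusted p = 0.443) after culture. At the bell stage it was 86.8, 82.6 and 87.0 CPM in Bell-L and 99.2, 98.9 and 100.1 CPM in Bell-B, with no overlap and a log2 difference of 0.22 (SE 0.034, edgeR adjusted p = 1.5e-06). The panel of 3 therefore gave Thy1 higher in the buccal part at both stages, Nt5e lower there at the bell stage, and Eng within 0.22 of 0 on the log2 scale throughout.

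Cd44, the receptor for hyaluronan, was called higher in the buccal part at the cap stage alone. Its levels were 60.4, 59.8 and 60.0 CPM in Cap-L and 88.3, 88.1 and 84.9 CPM in Cap-B, without overlap, and its log2 fold change was 0.56 (SE 0.045, edgeR adjusted p = 9.08e-09). The bell-stage difference was 0.13 (SE 0.037, edgeR adjusted p = 0.00506), and the difference after culture had the other sign, -0.23 (SE 0.037, edgeR adjusted p = 8.28e-06). The interaction of side with stage was -0.44 (SE 0.059, edgeR adjusted p = 7.59e-07), and that of side with culture was -0.80 (SE 0.058, edgeR adjusted p = 1.69e-12), both towards the lingual side.

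Alcam, an adhesion molecule of the immunoglobulin family, was lower in the buccal part in each setting. At the cap stage it was 213, 199.5 and 205 CPM in Cap-L and 158, 155 and 157 CPM in Cap-B, a log2 difference of -0.37 (SE 0.044, edgeR adjusted p = 1.95e-06) that missed the fold limit. Bell-stage levels were 371, 392 and 383 CPM in Bell-L and 219, 225 and 225 CPM in Bell-B, with a log2 fold change of -0.78 (SE 0.032, edgeR adjusted p = 2e-23). After culture it was 195, 199 and 197 CPM in Cap-L+2D and 54.6, 51.4 and 49.5 CPM in Cap-B+2D. The cultured buccal libraries were the lowest of all 24, and the log2 fold change between the sides was -1.93 (SE 0.041, edgeR adjusted p = 1.09e-22).

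Mcam and Vcam1 did not differ by call between the sides at the cap stage, at log2 differences of 0.02 (SE 0.043, edgeR adjusted p = 0.749) and 0.06 (SE 0.05, edgeR adjusted p = 0.393). Vcam1, which holds white blood cells and stem cells through integrin alpha 4, was 43.3, 44.4 and 46.6 CPM in Bell-L and 31.8, 29.8 and 28.4 CPM in Bell-B. All buccal libraries were lower, and the log2 fold change was -0.58 (SE 0.049, edgeR adjusted p = 3.87e-13). After culture Vcam1 was 69.0, 71.1 and 69.1 CPM in Cap-L+2D and 33.7, 32.9 and 30.8 CPM in Cap-B+2D, a log2 fold change of -1.11 (SE 0.046, edgeR adjusted p = 1.16e-16). Mcam was 135, 132 and 143 CPM in Cap-L+2D and 85.8, 83.6 and 86.8 CPM in Cap-B+2D. Its cultured buccal libraries were all lower, with a log2 fold change of -0.69 (SE 0.041, edgeR adjusted p = 1.57e-13), while its bell-stage difference was 0.06 (SE 0.032, edgeR adjusted p = 0.117).

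Nes was the only member called higher in the buccal part in all 3 settings. It was 87.1, 84.4 and 87.4 CPM in Cap-L and 131, 127 and 137 CPM in Cap-B, a log2 fold change of 0.64 (SE 0.045, edgeR adjusted p = 1.51e-09). Bell-stage levels were 82.0, 77.2 and 79.7 CPM in Bell-L and 230.3, 212 and 231 CPM in Bell-B, a log2 fold change of 1.49 (SE 0.036, edgeR adjusted p = 1.22e-31). After culture it was 107, 108 and 113 CPM in Cap-L+2D and 560.3, 567 and 588 CPM in Cap-B+2D. No lingual library reached a buccal one in any setting, and the cultured log2 fold change was 2.38 (SE 0.04, edgeR adjusted p = 7.34e-25). The interactions were 0.85 (SE 0.06, edgeR adjusted p = 1.32e-12) with stage and 1.74 (SE 0.059, edgeR adjusted p = 3.56e-20) with culture, both towards the buccal side.

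Lepr, the leptin receptor, was 51.6, 44.8 and 47.2 CPM in Cap-L and 89.1, 93.0 and 87.8 CPM in Cap-B. The buccal libraries were all higher, with a log2 fold change of 0.94 (SE 0.056, edgeR adjusted p = 1.22e-10). The sides overlapped in bell-stage tissue, at a log2 difference of -0.03 (SE 0.035, edgeR adjusted p = 0.523). After culture the order was turned, with 81.3, 82.8 and 80.8 CPM in Cap-L+2D and 51.2, 47.3 and 44.9 CPM in Cap-B+2D. The cultured buccal libraries were all lower, with a log2 fold change of -0.78 (SE 0.046, edgeR adjusted p = 1.32e-13), and the interaction of side with culture was -1.72 (SE 0.072, edgeR adjusted p = 4.42e-18).

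Ly6a was the only member called lower in the buccal part in all 3 settings, but it was close to the limit of detection, with between 4 and 118 counts per library. Cap-L had 80, 118 and 91 counts, or 2.88, 3.31 and 3.21 CPM, and Cap-B had 5, 10 and 4 counts, or 0.225, 0.418 and 0.158 CPM. The lingual libraries were all higher, and the log2 fold change was -3.51 (SE 0.26, edgeR adjusted p = 2.28e-09). Bell-L had 30, 31 and 29 counts and Bell-B 17, 24 and 15, which gave a log2 fold change of -0.76 (SE 0.26, edgeR adjusted p = 0.0187). This call was lost with DESeq2 (log2 fold change -0.76), in a fit of all 24 libraries (-0.76), and without Bell-L replicate 1 (-0.72), Bell-L replicate 2 (-0.73), Bell-B replicate 1 (-0.68) or Bell-B replicate 3 (-0.61). After culture the counts were 22, 33 and 49 and 19, 14 and 12, with a log2 fold change of -1.32 (SE 0.26, edgeR adjusted p = 0.000123).

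Averaged over the 3 settings, in 1 fit of 18 libraries, 2 members were higher on the buccal side and 3 on the lingual side. The share of all 22679 genes was 9.49% and 8.35%. Nes and Thy1 were higher, at log2 differences of 1.50 (SE 0.024, edgeR adjusted p = 2.43e-35) and 1.01 (SE 0.034, edgeR adjusted p = 4.92e-25). Ly6a, Alcam and Vcam1 were lower, at -1.87 (SE 0.15, edgeR adjusted p = 2.94e-13), -1.03 (SE 0.022, edgeR adjusted p = 2.48e-31) and -0.55 (SE 0.028, edgeR adjusted p = 2.76e-19). The side difference itself changed between stages, at an adjusted p under 0.05, for 9 of the 10 members (3 towards the buccal and 6 towards the lingual side), where 14.5% and 18% of 21931 genes did. It changed with culture for 9 of 10 (2 and 7), where 16% and 19.5% of 22098 genes did. In a fit of all 24 libraries the stage interactions of Eng (0.22) and Alcam (-0.38) no longer passed. Both interactions use the same Cap-L and Cap-B libraries. Of all genes called in the interactions, 44.6% and 45.0% moved towards the buccal side, and 55.4% and 59.0% did with library totals in place of TMM.

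Markers of other cell types also differed between the sides. The skeletal muscle list, 12 genes from Pax7 and Myod1 of muscle precursors to Myh3 and Ttn of fibres, was higher on the buccal side for all 11 genes that could be tested in cap-stage tissue, and for 12 of 12 in bell-stage tissue and after culture. The median log2 fold changes over the list were 4.03, 2.80 and 3.66. Its summed level was 19.5 to 21.1 CPM in Cap-L and 260.1 to 275 CPM in Cap-B. It was 131 to 140.4 CPM in Bell-L and 1102 to 1124 CPM in Bell-B. After culture it was 350.3 to 376 CPM in Cap-L+2D and 4483 to 4640.1 CPM in Cap-B+2D. Myf6 had no count in any Cap-L library. Summed muscle level rose over the buccal groups from Cap-B to Bell-B to Cap-B+2D, which was also their order by Nes level (132, 224 and 572 CPM). On the lingual side it was not, since Cap-L had more Nes than Bell-L and less muscle RNA. Nes is also made by muscle precursors and young fibres, and the part of these cells in its side difference was not tested.

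Epithelial markers were lower on the buccal side, for 8 of 10 genes at the cap stage, 6 of 10 at the bell stage and 9 of 10 after culture, with medians of -0.80, -0.55 and -3.56. Their summed level in culture was 420.5 to 453 CPM in Cap-L+2D and 37.8 to 40.3 CPM in Cap-B+2D. In culture the largest log2 fold changes were -5.93 for Krt15, -4.26 for Krt5 and -4.05 for Cldn4, while Krt8, also a keratin gene, had -0.66. Alcam moved in the same direction as this list in each setting, and it is also made by epithelial cells. Within Bell-W the order was the other way. Replicate 3 had the most summed epithelial RNA, 2104 CPM, and the lowest Alcam, 228 CPM against 385 and 403 CPM. The part of epithelium in the difference of Alcam was not tested.

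Endothelial markers were not called at the cap stage for any of 10 genes and fell for 1 of 10, Erg, at the bell stage. In culture 8 of 10 were lower in the buccal part, with summed levels of 500.3 to 506 CPM in Cap-L+2D and 218 to 218 CPM in Cap-B+2D. Mcam and Vcam1, both carried by vessels, were lower there too, while Eng, which vessels also carry, was not called. Schwann and glial markers were mostly higher on the buccal side, for 8 of 10 genes with 2 lower in cap-stage tissue, and for 6 with 2 lower in bell-stage tissue. Macrophage markers were lower there for 8 of 10 genes at the bell stage and 6 of 10 after culture, and none of 10 was called at the cap stage. The part of these cells in the members' differences was not tested.

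**Figure D3:**
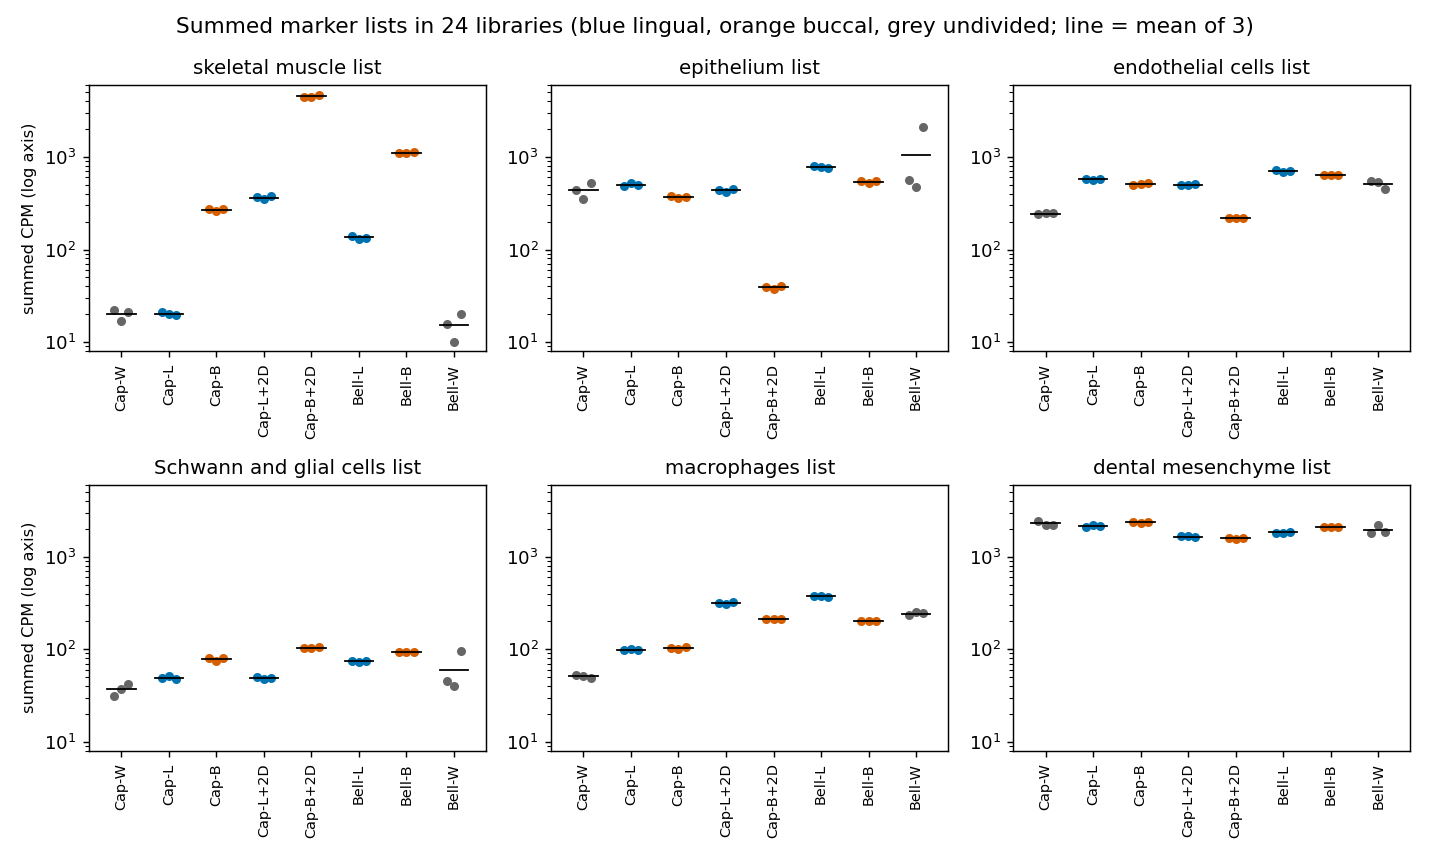
Summed CPM of 6 marker lists on log axes, with 1 point per library and a line at the mean of 3 in each group. The skeletal muscle list is higher in each buccal group than in its lingual partner, and the epithelium list is lowest in Cap-B+2D. The dental mesenchyme list has group means from 1585.5 CPM in Cap-B+2D to 2368.9 CPM in Cap-B.

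From the cap to the bell stage most members rose. In the undivided mesenchyme, 7 of the 9 members tested were higher in Bell-W than in Cap-W and none was lower, against 10.3% of 20940 genes that rose and 4.21% that fell. Of these, Nt5e, Eng, Cd44, Mcam and Lepr were lower in every Cap-W library than in any Cap-L or Cap-B library, as given below. In the lingual part 5 of 10 rose and 1 fell, against 14.2% and 5.78% of 21425 genes, and in the buccal part 6 rose and none fell, against 12% and 6.73% of 21992 genes. The medians over the members were 1.26, 0.51 and 0.54, and those over all genes tested -0.03, 0.00 and 0.00. With no fold limit 8 members rose in the buccal part and 1, Vcam1, fell there, at a log2 change of -0.43 (SE 0.05, edgeR adjusted p = 9.82e-09). The lingual comparison shares its Cap-L libraries, and the buccal one its Cap-B libraries, with the culture comparisons described further on.

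**Figure D4:**
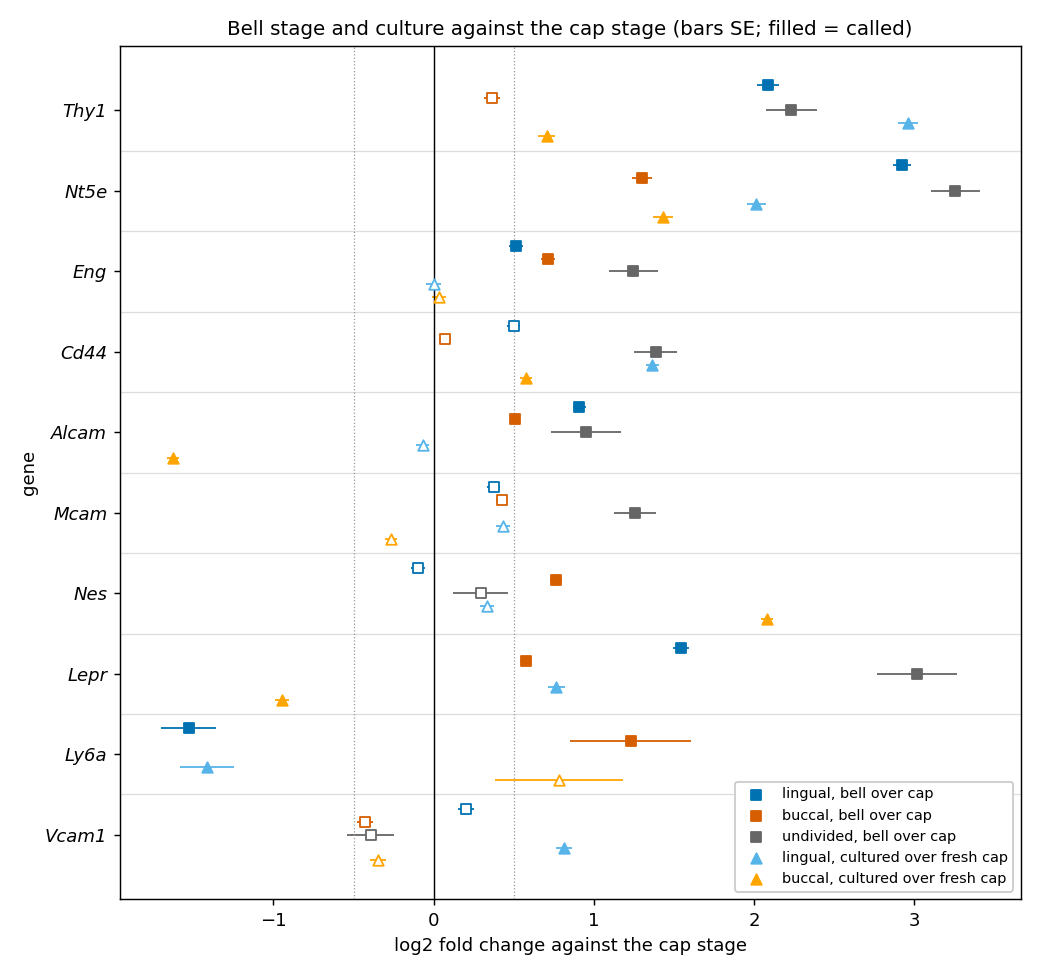
Log2 fold change of each member against the cap stage, with its standard error, for the bell stage (squares) and for 2 days of culture (triangles) in the lingual, buccal and undivided mesenchyme. Filled symbols were called. Only Nt5e is called to the right of 0 in every comparison, and cultured buccal mesenchyme has lower Alcam and Lepr and higher Nes.

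Nt5e rose most widely with stage. It was 7.22, 5.79 and 6.69 CPM in Cap-W and 54.1, 71.8 and 63.2 CPM in Bell-W, a log2 fold change of 3.26 (SE 0.15, edgeR adjusted p = 0.000105). On the lingual side it rose by 2.93 (SE 0.056, edgeR adjusted p = 4.78e-23) and on the buccal side by 1.30 (SE 0.064, edgeR adjusted p = 7.38e-18). Lepr was 16.4, 19.7 and 19.4 CPM in Cap-W and 170.2, 184 and 97.3 CPM in Bell-W, a log2 fold change of 3.02 (SE 0.25, edgeR adjusted p = 0.00052), and rose by 1.54 (SE 0.052, edgeR adjusted p = 4.84e-18) on the lingual and 0.58 (SE 0.039, edgeR adjusted p = 2.54e-14) on the buccal side. For both genes the bell and cap libraries of a part did not overlap, the bell ones being higher.

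Thy1 rose in the undivided mesenchyme, from 10.8, 8.74 and 8.90 to 38.1, 43.5 and 52.6 CPM, by 2.23 (SE 0.16, edgeR adjusted p = 0.0003) on the log2 scale. It rose by 2.09 (SE 0.066, edgeR adjusted p = 1.2e-18) in the lingual part, and its change in the buccal part was 0.36 (SE 0.052, edgeR adjusted p = 5.64e-07), under the fold limit. The buccal part already had 38.5 ± 1.10 CPM (SD, n = 3) at the cap stage. Eng rose in all 3 comparisons, by 1.25 (SE 0.15, edgeR adjusted p = 0.00193) in the undivided, 0.51 (SE 0.046, edgeR adjusted p = 8.36e-10) in the lingual and 0.71 (SE 0.043, edgeR adjusted p = 1.41e-15) in the buccal mesenchyme. Its lingual change sits at the fold limit, and the call was lost under 6 alternatives, with values from 0.47 to 0.50.

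Among the adhesion genes, Alcam rose by 0.95 (SE 0.22, edgeR adjusted p = 0.0241) in the undivided, 0.91 (SE 0.042, edgeR adjusted p = 2.87e-15) in the lingual and 0.51 (SE 0.033, edgeR adjusted p = 1.41e-14) in the buccal mesenchyme. The undivided call was lost without Cap-W replicate 2, Cap-W replicate 3, Bell-W replicate 1 or Bell-W replicate 2 (log2 fold changes 0.88, 0.98, 0.86 and 0.82). Cd44 rose by 1.39 (SE 0.13, edgeR adjusted p = 0.000845) and Mcam by 1.26 (SE 0.13, edgeR adjusted p = 0.00119) in the undivided mesenchyme, the only stage comparison in which they were called. In the divided parts Cd44 changed by 0.50 (SE 0.043, edgeR adjusted p = 4.69e-10) and 0.07 (SE 0.039, edgeR adjusted p = 0.144), and Mcam by 0.37 (SE 0.043, edgeR adjusted p = 7.35e-08) and 0.42 (SE 0.034, edgeR adjusted p = 2.91e-12), lingual and buccal. Vcam1 did not pass the test in the undivided mesenchyme, at -0.39 (SE 0.15, edgeR adjusted p = 0.12).

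Nes was called in the buccal part alone, at 0.76 (SE 0.037, edgeR adjusted p = 5.96e-18), beside -0.10 (SE 0.044, edgeR adjusted p = 0.059) in the lingual and 0.29 (SE 0.17, edgeR adjusted p = 0.301) in the undivided mesenchyme. The stage interaction given above is the test of this difference between the sides. Ly6a fell in the lingual part, at a log2 fold change of -1.53 (SE 0.17, edgeR adjusted p = 5.59e-08), and rose in the buccal part, at 1.23 (SE 0.38, edgeR adjusted p = 0.00761). The buccal call was lost without Cap-B replicate 3 or Bell-B replicate 2 (log2 fold changes 0.94 and 0.97). It was not tested in the undivided mesenchyme, where too few counts passed the filter on low values.

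In the undivided mesenchyme, 10 of 10 macrophage markers, 9 of 10 endothelial markers and 5 of 7 osteoblast genes rose as well. Summed endothelial markers were 240.3 to 249 CPM in Cap-W and 451 to 551 CPM in Bell-W. Without Bell-W replicate 3, which stood apart, 7 members still rose and the log2 fold changes of Alcam, Lepr and Nes were 1.17, 3.25 and 0.46. Without Cap-W replicate 1 they were 0.98, 2.94 and 0.38. On both sides 10 of 10 macrophage markers rose with stage too, and the part of other cells in these changes was not tested.

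The level in undivided mesenchyme often lay outside those of its parts. At the cap stage the mean of Cap-W was below both parts for 7 members, between them for 2 and above both for 1. For Nt5e, Eng, Cd44, Mcam and Lepr, all 3 Cap-W libraries were below all 6 libraries of the parts. Lepr, for instance, had 18.5 ± 1.82 CPM in Cap-W, 47.9 ± 3.46 in Cap-L and 90.0 ± 2.73 in Cap-B (SD, n = 3). At the bell stage the mean of Bell-W was between the parts for 5 members, below both for 3 and above both for 2. Summed muscle markers were 9.99 to 20.1 CPM in Bell-W, below both Bell-L and Bell-B, and summed endothelial markers in Cap-W were below those of Cap-L and Cap-B (567 to 579.7 and 503 to 517 CPM). No test was run between undivided and divided groups.

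Culture for 2 days moved the members differently on the 2 sides. On the lingual side 5 of 10 rose and 1 fell, against 19.6% and 15.9% of 21425 genes. On the buccal side 4 rose and 2 fell, against 17.9% and 16.6% of 21992 genes. Thy1, Nt5e and Cd44 rose on both sides. Lepr rose in the lingual culture and fell in the buccal one, Vcam1 rose in the lingual culture, Alcam fell and Nes rose in the buccal culture, and Ly6a fell in the lingual one. Of all genes called in the lingual comparison 55.3% rose, and 40.4% did with library totals in place of TMM, a scaling that shifts the median of all genes by -0.15.

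Thy1 had 58.1, 62.4 and 60.5 CPM in Cap-L+2D and rose from Cap-L by 2.96 (SE 0.063, edgeR adjusted p = 1.24e-22), the largest change of any member in culture. On the buccal side it rose by 0.70 (SE 0.051, edgeR adjusted p = 5.71e-14). The medians over the members were 0.60 on the lingual and 0.30 on the buccal side. Cd44 rose by 1.37 (SE 0.042, edgeR adjusted p = 2.34e-19) on the lingual and 0.58 (SE 0.038, edgeR adjusted p = 5.92e-15) on the buccal side (0.49 with library totals, under the fold limit), and all 6 cultured libraries were above the other 18. Nt5e rose by 2.01 (SE 0.058, edgeR adjusted p = 5.47e-20) and 1.43 (SE 0.063, edgeR adjusted p = 1.07e-19). Eng changed little, by 0.00 (SE 0.046, edgeR adjusted p = 1) and 0.03 (SE 0.044, edgeR adjusted p = 0.556), and its sign turned with the scaling.

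Lepr rose on the lingual side, at a log2 fold change of 0.77 (SE 0.053, edgeR adjusted p = 3.02e-12), and fell on the buccal side, at -0.95 (SE 0.042, edgeR adjusted p = 1.54e-19). Vcam1 rose by 0.81 (SE 0.048, edgeR adjusted p = 1.26e-13) on the lingual side, where its libraries were the highest of all 24, and changed by -0.35 (SE 0.049, edgeR adjusted p = 2.18e-07) on the buccal side. Alcam changed by -0.07 (SE 0.042, edgeR adjusted p = 0.153) on the lingual side, and on the buccal side its log2 fold change was -1.63 (SE 0.037, edgeR adjusted p = 1.07e-27). Nes changed by 0.34 (SE 0.043, edgeR adjusted p = 2.09e-07) on the lingual side and rose by 2.08 (SE 0.037, edgeR adjusted p = 1.21e-30) on the buccal side. Mcam stayed under the fold limit on both, at 0.43 (SE 0.043, edgeR adjusted p = 2.37e-09) and -0.27 (SE 0.035, edgeR adjusted p = 5.77e-08), and Ly6a had -1.42 (SE 0.17, edgeR adjusted p = 5.59e-08) and 0.78 (SE 0.40, edgeR adjusted p = 0.0832).

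Compared with 2 days in the embryo, that is with the bell stage of the same side, cultured lingual mesenchyme had 3 members higher and 4 lower. The shares of all 21425 genes were 14.4% and 16.8%. Thy1, Cd44 and Vcam1 were higher, by 0.87 (SE 0.053, edgeR adjusted p = 2.7e-13), 0.87 (SE 0.041, edgeR adjusted p = 2.86e-15) and 0.62 (SE 0.048, edgeR adjusted p = 3.75e-11). Alcam, Nt5e, Lepr and Eng were lower, at -0.98 (SE 0.042, edgeR adjusted p = 4.14e-16), -0.91 (SE 0.047, edgeR adjusted p = 1.57e-14), -0.78 (SE 0.05, edgeR adjusted p = 1.12e-12) and -0.51 (SE 0.046, edgeR adjusted p = 4.96e-10). The Eng call sits at the fold limit and was lost under 7 alternatives. Of all genes called here 46.3% were higher in culture, and 35.1% were with library totals, which shift the median of all genes by -0.11.

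Cultured buccal mesenchyme had 2 members higher than Bell-B and 4 lower, against 15.5% and 16.3% of 21992 genes. Nes was higher by 1.32 (SE 0.035, edgeR adjusted p = 1.47e-25) and Cd44 by 0.51 (SE 0.037, edgeR adjusted p = 9.66e-14), the latter call being lost without Bell-B replicate 1 (0.47), without Cap-B+2D replicate 1 (0.49) with library totals (0.42) and with a filter of at least 10 counts in every library (0.50, rounded up from under the limit). Alcam, Lepr, Mcam and Eng were lower, at -2.14 (SE 0.036, edgeR adjusted p = 4.03e-31), -1.52 (SE 0.04, edgeR adjusted p = 9.83e-26), -0.69 (SE 0.034, edgeR adjusted p = 2.97e-18) and -0.68 (SE 0.041, edgeR adjusted p = 6.73e-16).

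Other tissues changed in culture as well. All 7 erythroid genes fell on both sides, with summed levels of 2182 to 2707 CPM in Cap-L and 25.6 to 31.2 CPM in Cap-L+2D. All skeletal muscle genes tested rose on both sides, 11 of 11 and 12 of 12. On the buccal side all 10 endothelial and all 10 epithelial markers fell, while on the lingual side 2 and 5 of 10 did. Others rose in the lingual culture, namely the endothelial marker Cldn5 (log2 fold change 0.53) and the epithelial markers Cldn4 (0.93) and Krt15 (0.75). Their part in the members' changes was not tested.

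The 8 groups could be ranked by each member's level, and Nt5e and Alcam gave the clearest steps. From the lowest to the highest mean, Nt5e ran Cap-W, Cap-L, Cap-B, Bell-B, Cap-B+2D, Cap-L+2D, Bell-W and Bell-L, and only the libraries of Bell-B and Cap-B+2D overlapped between neighbours. Alcam ran Cap-B+2D, Cap-B, Cap-W, Cap-L+2D, Cap-L, Bell-B, Bell-W and Bell-L, and only the last 2 overlapped. Thy1 ran Cap-L, Cap-W, Bell-L, Cap-B, Bell-W, Bell-B, Cap-L+2D and Cap-B+2D, with overlap of Bell-W with both neighbours and of the 2 cultured groups. Nes ran Cap-W, Bell-L, Cap-L, Bell-W, Cap-L+2D, Cap-B, Bell-B and, highest, Cap-B+2D, and the steps from Cap-L+2D upwards did not overlap.

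Cd44 ran Cap-W, Cap-L, Bell-W, Bell-L, Cap-B, Bell-B, Cap-B+2D and Cap-L+2D, and 5 of its 7 steps did not overlap. Lepr ran from Cap-W through Cap-B+2D, Cap-L, Cap-L+2D and Cap-B to Bell-B, Bell-L and Bell-W. Its Cap-B+2D and Cap-L libraries overlapped, and there was no distinct order among the last 3. Mcam ran Cap-W, Cap-B+2D, Cap-B, Cap-L, Bell-L, Bell-B, Cap-L+2D and Bell-W, and Cap-B overlapped with Cap-L, as did the last 3 with their neighbours among them. Eng ran Cap-W, Cap-B, Cap-L, Cap-L+2D, Cap-B+2D, Bell-W, Bell-L and Bell-B. The cap-stage parts could not be separated from the cultures, and Bell-W overlapped with Bell-L. Vcam1 ran from Bell-B, Bell-W and Cap-B+2D through Cap-L, Cap-B, Cap-W and Bell-L to Cap-L+2D, and 2 of 7 steps did not overlap. Ly6a ran Cap-W, Cap-B, Bell-W, Cap-B+2D, Bell-B, Bell-L, Cap-L+2D and Cap-L, also with 2 of 7 steps free of overlap. Between its extreme groups a member's mean differed from 2.32-fold (Vcam1) to 13.7-fold (Ly6a).

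Across the 8 group means of log2 CPM, the members fell into no single pattern. Mcam and Lepr had a Pearson r of 0.93, Eng and Lepr 0.92, Eng and Mcam 0.87 and Thy1 and Cd44 0.81, while Alcam and Nes had -0.81. These values describe 8 groups only. Among the other genes with an average log2 CPM of at least 2, the 3 with the pattern most like that of Nes were Fam110a (r 0.98), Rb1 (0.98) and Stac3 (0.98), the last a gene of muscle excitation. For Alcam they were Perp (0.99), Krt17 (0.98), a keratin, and Ubald2 (0.98). For Thy1 they were Parva (0.99), Mir99ahg (0.99) and Tmem132e (0.98), and for Nt5e Dnase1l1 (0.99), Dock2 (0.98) and Kat2b (0.98).

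Eng was most like Tinagl1, Rab29 and Slc49a3 (0.98 each), and Cd44 like Snhg18 (1.00), Gm4857 (0.99) and Nagk (0.99). Mcam was most like Ctsc (0.98), Rapgef4 (0.98) and Mvb12a (0.97), and Lepr like Eef2kmt (0.99), Tm4sf1 (0.96) and Serpinb9 (0.96). Ly6a, with its low counts, had Rgs19 (0.95), Sumo3 (0.94) and Gm6365 (0.94), and Vcam1 had Clmp (0.98), Arl13b (0.96) and Ctps2 (0.95).

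Some partners of the members also differed between the sides. Of 28 ligand, receptor and enzyme genes tested from a list of 31, 6 were higher and 9 lower in the buccal part at the cap stage, 4 and 5 in bell-stage tissue, and 6 and 10 after culture, with medians of -0.07, -0.07 and -0.37. The shares of all genes tested were 10.4% and 7.1%, 6% and 6.88%, and 12.5% and 12.5%. Itga4, the integrin chain that binds VCAM1, was higher on the buccal side each time, at log2 fold changes of 2.30 (SE 0.07, edgeR adjusted p = 8.37e-15) at the cap stage, 1.49 (SE 0.051, edgeR adjusted p = 2.97e-26) at the bell stage and 3.33 (SE 0.058, edgeR adjusted p = 1.71e-24) after culture. Entpd1, the enzyme that supplies NT5E with AMP, was lower each time, at -2.01 (SE 0.062, edgeR adjusted p = 1.05e-14), -2.05 (SE 0.039, edgeR adjusted p = 2.89e-35) and -1.94 (SE 0.048, edgeR adjusted p = 2.17e-21). Itga4 thus had the sign opposite to Vcam1 at the bell stage and in culture, and Entpd1 the sign opposite to Nt5e at the cap stage.

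For the partners of ENG, Tgfb2 was higher in the buccal part at the cap stage (2.11 (SE 0.049, edgeR adjusted p = 1.93e-16)) and after culture (0.96 (SE 0.04, edgeR adjusted p = 1.06e-16)), and Tgfb3 was lower at the cap (-1.13 (SE 0.043, edgeR adjusted p = 1.97e-13)) and bell (-0.69 (SE 0.033, edgeR adjusted p = 3.72e-21)) stages. Acvrl1, the receptor that signals with ENG in vessels, was lower at the bell stage (-0.80 (SE 0.046, edgeR adjusted p = 1.61e-18)) and after culture (-2.58 (SE 0.05, edgeR adjusted p = 1.65e-23)). For CD44, the hyaluronan synthase gene Has1 was higher in the buccal part at the cap stage (1.53 (SE 0.17, edgeR adjusted p = 9.82e-07)) and lower after culture (-1.65 (SE 0.088, edgeR adjusted p = 2.19e-14)). Spp1, osteopontin, was lower at the cap stage (-1.82 (SE 0.21, edgeR adjusted p = 1.11e-06)) and higher at the bell stage (1.60 (SE 0.14, edgeR adjusted p = 6.58e-13)). Lep, the ligand of LEPR, had 1 count in 1 of the 24 libraries and none in the others.

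Other mesenchymal stem and progenitor markers, 16 genes, gave 3 higher and 1 lower in the buccal part at the cap stage, 3 and 2 in bell-stage tissue, and 1 and 5 after culture, with medians of 0.14, 0.12 and -0.18. Among all genes tested the shares were 10.4% and 7.1%, 6% and 6.88%, and 12.5% and 12.5%. Acta2, smooth muscle actin, was higher in the buccal part each time, at 2.93 (SE 0.055, edgeR adjusted p = 8.47e-18), 1.91 (SE 0.036, edgeR adjusted p = 2.74e-35) and 1.36 (SE 0.04, edgeR adjusted p = 7.19e-20). The skeletal muscle list was also higher there each time, and the part of muscle cells in the Acta2 difference was not tested. Cxcl12, a chemokine of marrow stroma, was higher at the cap (1.72 (SE 0.043, edgeR adjusted p = 4.98e-16)) and bell (1.00 (SE 0.031, edgeR adjusted p = 1.61e-27)) stages. Ngfr (CD271), a marker of neural crest cells and MSCs, was lower each time, at -1.97 (SE 0.057, edgeR adjusted p = 4e-15), -0.70 (SE 0.036, edgeR adjusted p = 3.29e-20) and -0.92 (SE 0.043, edgeR adjusted p = 1.38e-15). Gli1, which marks stem cells in teeth, was not called at either stage and was lower in cultured buccal mesenchyme, at -2.78 (SE 0.055, edgeR adjusted p = 2.2e-23). Prrx1, a mesenchymal transcription factor, was lower at the bell stage (-0.57 (SE 0.033, edgeR adjusted p = 3e-18)) and after culture (-0.74 (SE 0.036, edgeR adjusted p = 3.32e-15)).

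Of the blood markers whose absence helps to define MSCs, 8 of 10 were tested between the sides, with medians of -0.12 in cap-stage tissue, -0.08 in bell-stage tissue and -0.45 after culture. At the cap stage Ptprc (CD45), Cd34 and Cd14 were higher in the buccal part, at 1.12 (SE 0.10, edgeR adjusted p = 5.72e-08), 1.07 (SE 0.046, edgeR adjusted p = 1.23e-12) and 0.89 (SE 0.10, edgeR adjusted p = 1.3e-06). Kit and H2-Ab1 were lower, at -1.19 (SE 0.054, edgeR adjusted p = 2.65e-12) and -1.16 (SE 0.30, edgeR adjusted p = 0.00446). No marker was called at the bell stage, and after culture Cd34 was higher (0.74 (SE 0.037, edgeR adjusted p = 5.66e-15)) while Kit, Cd79a and Cd14 were lower. Cd3e, of T cells, had at most 2 counts in any library. The buccal part at the cap stage thus had both more Thy1 and more Ptprc, and whether the same cells carried them cannot be read from bulk RNA.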

How the data were processed

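RNA was measured in 24 libraries of molar dental mesenchyme, 3 in each of 8 groups taken from the sample labels. The deposited values are raw counts of read pairs per gene, which the authors made with featureCounts (Subread 2.0.0 per the file headers) over exons of the Ensembl 107 annotation of GRCm39. It was set to ignore strand and to leave out pairs matching several genes or places. The submitters' processing notes name Bowtie 1.2.3, Trimmomatic 0.39 and Subread 2.0.3, and the published methods name another aligner and trimmer, so the aligner is uncertain. Without strand, reads of a gene and of an overlapping antisense gene cannot be told apart. Symbols were matched by gene identifier for 56017 of 56748 genes.

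From the counts, edgeR 4.0.16 (R 4.3.3) was run with TMM factors, its filter on low counts and its quasi-likelihood test, with Benjamini-Hochberg adjustment over all genes tested. Side comparisons used the 6 libraries concerned, stage and culture comparisons within a side the 9 libraries of that side, interactions 12 libraries and the averaged side difference 18. Standard errors are the absolute log2 fold change divided by the square root of the F statistic. Genes were called below an adjusted p of 0.05 if the fold also passed 0.5 on the log2 scale (no fold limit for interactions). The scripts were tested on simulated data. Levels are CPM with TMM factors over all libraries, per kilobase with the deposited exon lengths. An exact permutation test of 3 against 3 libraries cannot go below 0.10 and was not used. At these depths 3 counts, taken as the limit of detection, are 0.0764 to 0.146 CPM, and this limit covers counting error only. All count columns were used.

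All 10 members were named in every comparison, and from the other lists up to 4 genes called in each direction, those with the largest change, beside single cell type markers. The members and lists were chosen with earlier results of these data known. Alternatives were other scalings (RLE, library totals, the 100 most abundant genes left out), DESeq2 1.42.0, other filters and thresholds, a replicate block, 1 fit of all libraries, and each library left out in turn.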

Additional observations from a re-analysis of the deposited data

Results flagged for a closer look

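The results singled out here are those in which the buccal-to-lingual difference of a member itself differed between 2 settings, by an interaction term with an edgeR adjusted p under 0.05. Values are differences of log2 fold changes, and those below 0 moved towards the lingual side.

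From the cap to the bell stage, the interaction was -1.73 for Thy1, -1.64 for Nt5e, -0.98 for Lepr, -0.64 for Vcam1, -0.44 for Cd44 and -0.41 for Alcam. It was 2.75 for Ly6a, 0.85 for Nes and 0.19 for Eng. The Ly6a value rests on 4 to 10 counts per library in Cap-B.

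From the cap stage to 2 days of culture, the interaction was -2.26 for Thy1, -1.72 for Lepr, -1.57 for Alcam, -1.17 for Vcam1, -0.80 for Cd44, -0.71 for Mcam and -0.59 for Nt5e. It was 2.19 for Ly6a and 1.74 for Nes. Both sets use the same cap-stage libraries, so they are not independent of each other.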

How the results depend on the processing

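Of 2219 log2 fold changes of members recomputed under alternatives, over 129 pairs of a member and a comparison, 2157 kept their direction and their side of the threshold, 32 lost the call, 3 gained it and 27 turned direction. Before the change of setting, the pairs that turned had absolute values of at most 0.11. Eng in Cap-B against Cap-L was -0.00012 with library totals, -0.0038 with no filter, -0.0039 to 0.050 when 1 library was left out and -0.0016 in a fit of all libraries, and Mcam there was -0.0023, -0.0062 and -0.0044 with library totals, no filter and all libraries. Eng in Cap-L+2D against Cap-L was -0.15 with library totals (edgeR adjusted p = 0.00532, past the p threshold but under the fold limit), -0.0013 with at least 10 counts, -0.0072 with all libraries, and -0.038 to 0.026 with a library left out. Eng in Cap-B+2D against Cap-B was -0.055 with library totals, and -0.026 to 0.064 with a library left out. Leaving out libraries also gave -0.0088 to 0.080 for Eng between the cultured sides and -0.035 to 0.056 for its interaction with culture. In Cap-L+2D against Bell-L, Mcam was -0.052 with library totals and Ly6a -0.047 to 0.23 with a library left out, and Lepr in Bell-B against Bell-L was -0.062 to 0.013.

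Counts of members called moved mainly with the fold limit, and are given here in both directions, with the share of all genes called up and down in the same fit. With a limit of 1, the members called between the sides were 1 up and 1 down at the cap stage (5.43% and 3.1% of all genes), 1 up and 1 down in bell-stage tissue (2.86% and 2.33%), 1 up and 3 down after culture (6.35% and 5.84%) and 2 up and 2 down on average (4.32% and 3.3%). The same limit gave 1 up and 2 down for the stage interaction (2% and 4.14%) and 2 up and 4 down for the culture interaction (3.09% and 4.85%). It gave 6 up and 0 down in Bell-W against Cap-W (7.48% and 1.41%), 3 up and 1 down in Bell-L against Cap-L (7.53% and 1.84%), 3 up and 1 down in Cap-L+2D against Cap-L (10.4% and 6%), 0 up and 0 down in Cap-L+2D against Bell-L (6.25% and 7.42%), 2 up and 0 down in Bell-B against Cap-B (6.01% and 2.22%), 2 up and 1 down in Cap-B+2D against Cap-B (9.64% and 7.73%), and 1 up and 2 down in Cap-B+2D against Bell-B (7.36% and 8.06%). With no limit on the fold, the members called between the sides were 5 up and 2 down at the cap stage (21.7% and 20.7%), 4 up and 4 down in bell-stage tissue (17.7% and 19.3%), 1 up and 7 down after culture (27% and 27.6%) and 4 up and 5 down on average (26.2% and 28.2%). They were 7 up and 0 down in Bell-W against Cap-W (10.8% and 5.5%), 8 up and 1 down in Bell-L against Cap-L (26.5% and 23.6%), 7 up and 1 down in Cap-L+2D against Cap-L (32.2% and 33.7%), 4 up and 4 down in Cap-L+2D against Bell-L (30.1% and 31.2%), 8 up and 1 down in Bell-B against Cap-B (24.5% and 23.5%), 4 up and 4 down in Cap-B+2D against Cap-B (32.5% and 34.6%), and 4 up and 4 down in Cap-B+2D against Bell-B (32.5% and 33.2%). A filter of at least 10 counts in every library removes Ly6a, which left 0 down at the cap stage and 1 up for the culture interaction. In Cap-B+2D against Bell-B, 1 was up with library totals and with that filter, and 1 to 2 when a library was left out.

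Correlations of same-numbered libraries lay between -0.255 and 0.407 for the 2 sides. With 3 libraries per group, these values cannot settle whether the replicate numbers pair the libraries. With the replicate number as a block, 128 of the 129 pairs kept their call and direction, and the other, Eng in Cap-L+2D against Cap-L, was -0.0012. Depth limits Ly6a most, and the undivided groups had the widest spread between libraries.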

Other observations

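Some further marker lists also differed between the groups, and the part of these cells in the members' differences was not tested. Osteoblast genes, 8 in the list, were lower in the buccal part for 5 of 7 genes tested at the cap stage, with 1 higher, and for 6 of 8 after culture. In bell-stage tissue 2 of 7 were lower and 2 were higher. In lingual culture 7 of 8 rose, with a median log2 fold change of 1.92, and in buccal culture 6 rose and 1 fell. Pericyte and smooth muscle genes gave 4 higher and 1 lower in the buccal part at the cap stage, 2 and 0 in bell-stage tissue, and 3 and 5 of the 9 tested after culture. Neuronal genes were higher in the buccal part for 6 of 7 after culture, 3 of 6 at the bell stage and 2 of 6 at the cap stage, where 1 was lower. 

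Bell-W replicate 3 had 147 CPM of summed neuronal markers against 20.8 and 24.3 in replicates 1 and 2, and 95.5 CPM of Schwann and glial markers against 45.5 and 40.1. The same library also had the most summed epithelial markers of the 3, as given above. In it Alcam was at 227.6 CPM, Lepr at 97.3 and Nes at 74.6, each the lowest of the 3 Bell-W libraries.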
